A study of Homo sapiens with 9 samples.

Results

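To describe the kinases that act downstream of LKB1 in cells given siRNAs against the long noncoding RNA LINC00673, the expression of 10 genes was followed: the microtubule affinity regulating kinases MARK1, MARK2, MARK3 and MARK4, the salt inducible kinases SIK1, SIK2 and SIK3, the NUAK family kinases NUAK1 and NUAK2, and STK11, which encodes LKB1. They were taken by gene symbol from the 19930 genes with values in the deposited table, and the rule itself used no measured value. The study had, however, already picked out MARK4 from this sequencing. The libraries were prepared from cells labelled MDA-MB-453 (a widely used line from a human mammary carcinoma) 48 h after a transient lipid transfection with a negative control siRNA (si-NC) or with either of 2 siRNAs against LINC00673 (si-LINC00673-1 and si-LINC00673-2), with 3 libraries in each group. All groups were the same line and received an siRNA, and the labels do not say whether the 3 libraries of a group came from separate cultures. The study speaks in general of independent experiments behind its results, without tying this to single libraries, so that the P values measure the spread between these libraries, which may be technical. The siRNA number was read from the library titles, and the level of LINC00673 itself was not analysed here, so that the knockdown was not checked in these libraries.

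Expression was deposited as FPKM, a fragment count scaled by transcript length and library depth, which can be compared between genes. Depth was read from the steps between low FPKM values and came to 23.4 to 27.2 M fragments per library, with 25.5 to 27.2 M in si-NC, 24.1 to 25.4 M in si-LINC00673-1 and 23.4 to 24.7 M in si-LINC00673-2. Of the markers of the line, ERBB2 was at 11.79 to 17.82 FPKM, KRT8 at 3011.46 to 3773.05 FPKM and EPCAM at 287.29 to 329.59 FPKM, while FOXA1, a transcription factor gene of luminal cells, was at 0.0 to 0.04 FPKM in all 9 libraries and the mesenchymal filament gene VIM at 366.06 to 440.74 FPKM. MDA-MB-453 is known as a luminal line, so the absence of FOXA1 goes against the label, and what cells these are was not tested. Markers of leukocytes (PTPRC, 0.0 to 0.07 FPKM) and endothelium (PECAM1, 0.07 to 0.12 FPKM) were near 0. In such bulk RNA, fewer cells of a kind and less RNA per cell cannot be told apart.

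LKB1 is a tumor suppressor kinase that, in a complex with a STRAD pseudokinase and the scaffold MO25, switches on AMPK and the AMPK-related kinases by phosphorylating their activation loop. MARK kinases phosphorylate microtubule-associated proteins and set cell polarity. SIK kinases hold CRTC coactivators and class IIa histone deacetylases in the cytoplasm through 14-3-3 proteins and so restrain CREB-driven transcription, and SIK1 is itself a CREB target gene. NUAK kinases act on the myosin phosphatase and on cell adhesion, and NUAK2 is known as a target of the YAP and TEAD transcription factors at the end of the Hippo pathway. The study examined MARK4 as a link between LINC00673, the microRNA miR-515-5p and Hippo signaling. All of this regulation by phosphorylation lies outside the measurement, which covers RNA only.

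In the coordinates of the deposited table (GRCh37.p13), MARK4 (NCBI Gene ID 57787) lies on the plus strand at chr19:45754516-45808541 and STK11 (6794), on the same chromosome and strand, at chr19:1205798-1228434. SIK1 (150094) is on the minus strand at chr21:44834395-44847012 and NUAK2 (81788) on the minus strand at chr1:205271191-205290919. The other members are MARK1 (4139) at chr1:220701525-220837799, MARK2 (2011) at chr11:63606400-63678492, MARK3 (4140) at chr14:103851701-103970168, SIK2 (23235) at chr11:111473115-111597641, SIK3 (23387) at chr11:116714118-116969131 and NUAK1 (9891) at chr12:106457125-106533811. FPKM were counted over whole genes, so that no value belongs to a single exon or isoform.

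Promoters of NUAK2 and SIK1 are shown because these members rose with both siRNAs and because their known regulators bind defined motifs. RefSeq start sites of GRCh38.p14 gave the 250 bases before the start for 9 of the 10 members, with 2 promoters for MARK2 and none for MARK1. In NUAK2 (chr1:205321746-205321995, minus strand), the letters GGAATG or, on the other strand, CATTCC, the core bound by TEAD factors, are in capitals, and in SIK1 (chr21:43427132-43427381, minus strand) the capitals mark TGACG or CGTCA, the half-site of the cyclic AMP response element bound by CREB.
NUAK2 promoter: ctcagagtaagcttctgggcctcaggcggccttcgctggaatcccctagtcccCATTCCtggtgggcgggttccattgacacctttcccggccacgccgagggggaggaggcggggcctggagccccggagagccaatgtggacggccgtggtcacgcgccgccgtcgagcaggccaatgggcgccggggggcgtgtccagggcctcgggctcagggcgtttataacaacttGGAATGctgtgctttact
SIK1 promoter: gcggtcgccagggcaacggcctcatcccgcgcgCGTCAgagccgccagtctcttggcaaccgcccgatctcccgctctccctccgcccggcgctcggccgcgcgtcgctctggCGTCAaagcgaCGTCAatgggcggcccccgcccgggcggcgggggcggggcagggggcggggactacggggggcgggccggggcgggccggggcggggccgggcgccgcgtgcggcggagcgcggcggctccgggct

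The TEAD core occurred in NUAK2, at 197 and 18 bases before the start, and in no other member's window, against 11.9% of all 35116 promoters in the reference. The CREB half-site occurred in 6 of the 9 members with a promoter (MARK3, MARK4, SIK1, SIK2, SIK3 and STK11), with 3 matches in SIK1, against 21.2% of all promoters. The full element TGACGTCA was in none of the members' windows and in 1.65% of all promoters. A match is a description of these letters, and no match says only that they are not in this window.

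The study tied MARK4 to miR-515-5p by database prediction, by raising and lowering the microRNA and by a luciferase reporter assay. In that assay the mimic lowered the activity of the wild-type MARK4 reporter but not of the mutant. Here the seed of this microRNA was looked up in the 3′ untranslated regions of the members, in the longest GENCODE v29 transcript that carries one of the table's RefSeq accessions. The lookup describes letters only and does not test that evidence. The mature sequence from RefSeq, encoded on chromosome 19 at chr19:53679016-53679039 and again at chr19:53685022-53685045 (GRCh38.p14), is shown with its seed, bases 2 to 8, in capitals.
hsa-miR-515-5p: uUCUCCAAaagaaagcacuuucug
The 7 letters that pair with the whole seed, TTGGAGA, were in none of the 11 MARK4 transcripts and among the members only once, in SIK2, against 17.3% of the 11208 expressed genes with such a region. The 6 letters that pair with bases 2 to 7, TGGAGA, occurred 2 times in the 2845 bases of the MARK4 region, at its bases 656 and 1549, and in 41.4% of those genes. In both MARK4 matches the next letter was an A, which pairs with the first base (u) of the microRNA. The share of genes with this longer match was not counted. Both MARK4 sites are shown with their surroundings and the 6 letters in capitals, the first at chr19:45303082-45303105 and the second at chr19:45303975-45303998 (GRCh38, plus strand).
MARK4 first site: gagcctaaagacTGGAGAatctgg
MARK4 second site: gttgggcatggaTGGAGAatcagc
The same 6 letters were found 3 times in SIK2, 2 times in STK11, once in NUAK1 and in none of the other members. These counts and shares do not allow for length. The SIK2 region has 6724 bases, and the median over the 11208 genes was 1163.5 bases. TTGGAGA came to 0.149 per kb in SIK2 and to 0.12 per kb over those genes. MicroRNAs were not measured in these libraries.

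In control cells the members covered a wide range of levels. MARK2 had the highest mean FPKM in si-NC with 25.5 ± 0.513 (SD, n = 3), followed by MARK3 with 20.5 ± 0.592 and STK11 with 15.0 ± 1.24. SIK2 (9.93 ± 0.307 FPKM) and MARK4 (9.72 ± 0.21 FPKM) came next and overlapped between libraries, so their order was not set by these data. SIK1 followed with 9.01 ± 0.281 FPKM. SIK3 (5.47 ± 0.212 FPKM) and NUAK2 (4.94 ± 0.376 FPKM) overlapped as well, and MARK1 was low at 1.43 ± 0.144 FPKM. NUAK1 was close to the detection limit with 0.227 ± 0.0321 FPKM, which rests on 33 to 47 fragments per library over the 9 libraries and was below the filter of a mean of 1 FPKM. The other 9 members rest on at least 179 fragments in every library.

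**Figure D1:**
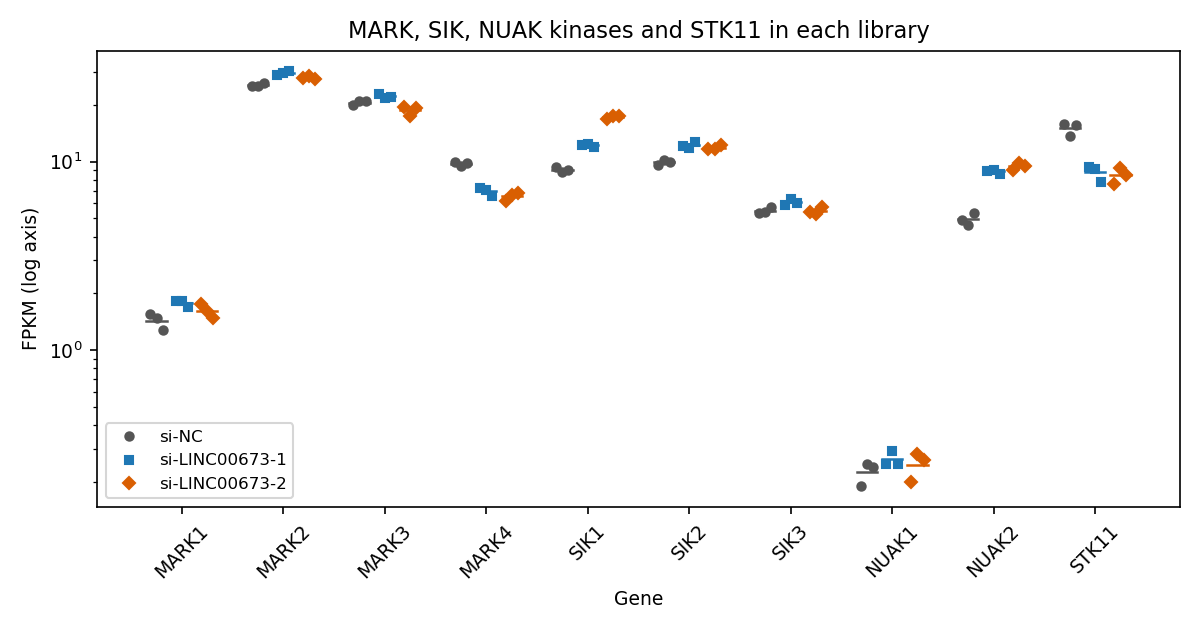
FPKM on a log axis for each of the 10 genes in each library (points) with the group mean (line), for si-NC, si-LINC00673-1 and si-LINC00673-2. MARK4 and STK11 lie lower and NUAK2 and SIK1 higher in all 6 siRNA libraries than in the 3 si-NC libraries, while NUAK1 stays between 0.19 and 0.29 FPKM.

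To compare each siRNA with si-NC, the values were tested on the log2(FPKM + 1) scale with limma across the 12884 genes whose mean reached 1 FPKM, and a gene was taken as changed at a fold of at least 1.3 (0.38 on the log2 scale) and a P of at most 0.05, the limits of the study. Of the 9 members tested, 4 changed with si-LINC00673-1, where 26.7% of all tested genes did so, and the same 4 changed with si-LINC00673-2, where the share of all genes was 34.0%. NUAK2 and SIK1 rose, as 11.1% and 11.0% of all tested genes did, and MARK4 and STK11 fell, as 15.6% and 23.1% did. At an adjusted P of at most 0.05 with no limit on the fold, 8 and 7 members changed, with 64.4% and 70.8% of all genes. Both comparisons use the same si-NC libraries and are therefore not independent. The median log2 fold change over all tested genes was 0.003 and -0.095 for these siRNAs in turn. Lower genes made up 58.3% and 67.8% of those changed, and it was 58.3% and 53.1% once the libraries had been rescaled to a median ratio of 1 between expressed genes.

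**Figure D2:**
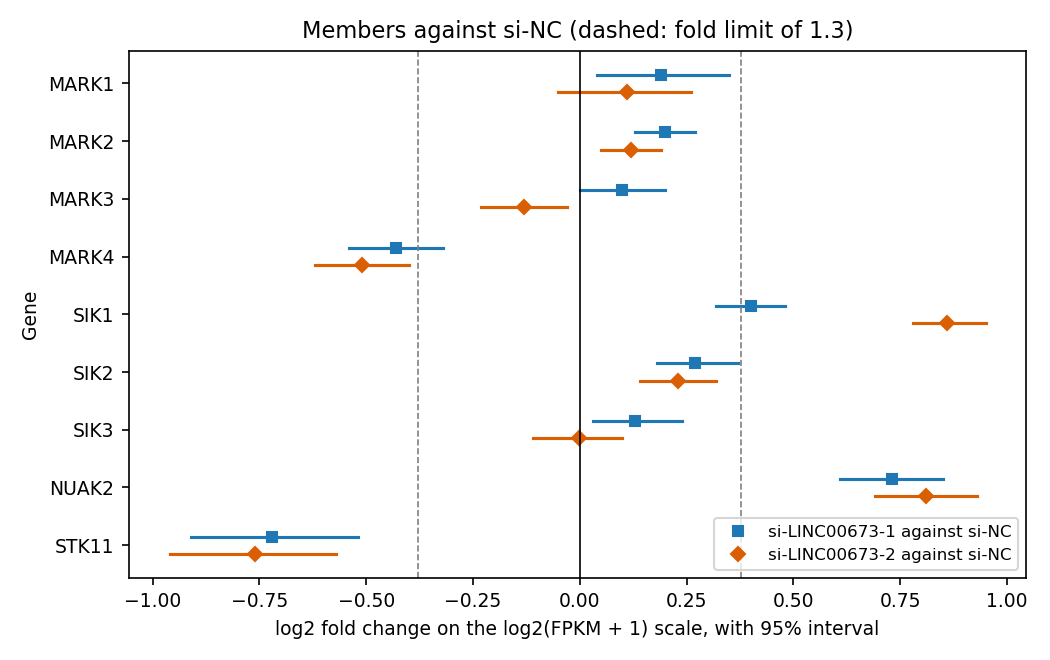
The log2 fold change of the 9 tested members on the log2(FPKM + 1) scale (horizontal axis) with its 95% confidence interval, for si-LINC00673-1 (squares) and si-LINC00673-2 (diamonds) against si-NC, with dashed lines at the fold limit of 1.3. MARK4 and STK11 lie to the left of the limit and SIK1 and NUAK2 to its right with both siRNAs.

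STK11, the upstream kinase, fell with both siRNAs. Its FPKM in the si-NC libraries, given here and below in the order of the library without a suffix, r1 and r2, were 15.75, 13.59 and 15.71. With si-LINC00673-1 they were 9.39, 9.08 and 7.78, and with si-LINC00673-2 they were 7.56, 9.29 and 8.47. Every siRNA library was below every si-NC library, as in 35.1% and 46.1% of all tested genes. The mean was 0.583 times that of si-NC with si-LINC00673-1 (log2 fold change -0.72, SE 0.086, limma adjusted P = 5.4e-05) and 0.562 times with si-LINC00673-2 (-0.76, adjusted P = 2.6e-05). After correction of each library for GC content the log2 fold changes were -0.381 and -0.394, still past the limit and about at it.

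MARK4, the member of the MARK family that the study followed, also fell with both siRNAs. The study reported lower MARK4 mRNA from the same sequencing, so the values here are not separate support for that fall. The si-NC libraries had 9.88, 9.48 and 9.79 FPKM. The si-LINC00673-1 libraries had 7.26, 7.1 and 6.54 FPKM and the si-LINC00673-2 libraries 6.17, 6.64 and 6.82 FPKM, all below the lowest si-NC library. The same held for 35.1% and 46.1% of all tested genes. The log2 fold change was -0.43 (95% confidence interval -0.54 to -0.32, limma adjusted P = 4.0e-05) with si-LINC00673-1 and -0.51 (-0.62 to -0.4, adjusted P = 9.4e-06) with si-LINC00673-2. Between the siRNAs MARK4 differed by -0.08 (-0.19 to 0.03, adjusted P = 0.22). With the GC correction the values were -0.282 and -0.3, short of the fold limit.

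The paralogs of MARK4 did not pass both limits with either siRNA. MARK2 had 25.2, 25.29 and 26.13 FPKM in si-NC, 28.88, 29.51 and 30.03 FPKM with si-LINC00673-1, and 27.72, 28.4 and 27.34 FPKM with si-LINC00673-2. All of its siRNA libraries were above all of its si-NC libraries, as for 35.0% and 26.9% of all tested genes, but the log2 fold changes of 0.2 (limma adjusted P = 3.2e-04) and 0.12 (adjusted P = 0.0066) were short of the fold limit. With the GC correction, the MARK2 value with si-LINC00673-1 was 0.38 and past it. MARK3 had 19.85, 20.88 and 20.87 FPKM in si-NC, 22.67, 21.69 and 22.02 FPKM with si-LINC00673-1, and 19.42, 17.48 and 19.22 FPKM with si-LINC00673-2. The si-LINC00673-1 libraries were thus the highest and the si-LINC00673-2 libraries the lowest, with log2 fold changes of 0.1 (adjusted P = 0.064) and -0.13 (adjusted P = 0.024). Of all tested genes, 35.0% lay wholly above si-NC with si-LINC00673-1 and 46.1% wholly below it with si-LINC00673-2. The medians over all tested genes were 0.003 and -0.095, and the MARK3 values were not rescaled by the median ratio. MARK1, with 1.27 to 1.55 FPKM in si-NC, had 1.69 to 1.83 FPKM with si-LINC00673-1 and 1.48 to 1.75 FPKM with si-LINC00673-2, and its log2 fold changes were 0.19 (adjusted P = 0.029) and 0.11 (adjusted P = 0.19).

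Within the MARK family the balance of transcripts therefore differed between the groups. MARK4 made up 17.5%, 16.6% and 16.9% of the summed MARK FPKM in the si-NC libraries, 12.0%, 11.8% and 10.8% with si-LINC00673-1, and 11.2%, 12.3% and 12.4% with si-LINC00673-2. The means were 17.0% ± 0.46, 11.5% ± 0.607 and 12.0% ± 0.665 (SD, n = 3 each). The share of MARK2 was 44.6% ± 0.365 in si-NC, 48.8% ± 1.12 with si-LINC00673-1 and 50.9% ± 1.4 with si-LINC00673-2. The groups did not overlap for either gene against si-NC, and the two-sided exact permutation test gave P = 0.1 each time, the smallest P that 3 against 3 libraries allow (0.14 after Benjamini-Hochberg adjustment over 24 such tests). The MARK4 over MARK2 ratio was 0.375 to 0.392 in si-NC, 0.218 to 0.251 with si-LINC00673-1 and 0.223 to 0.249 with si-LINC00673-2. The summed MARK FPKM moved little by comparison, with means of 57.2, 60.3 and 54.7 in the 3 groups.

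**Figure D3:**
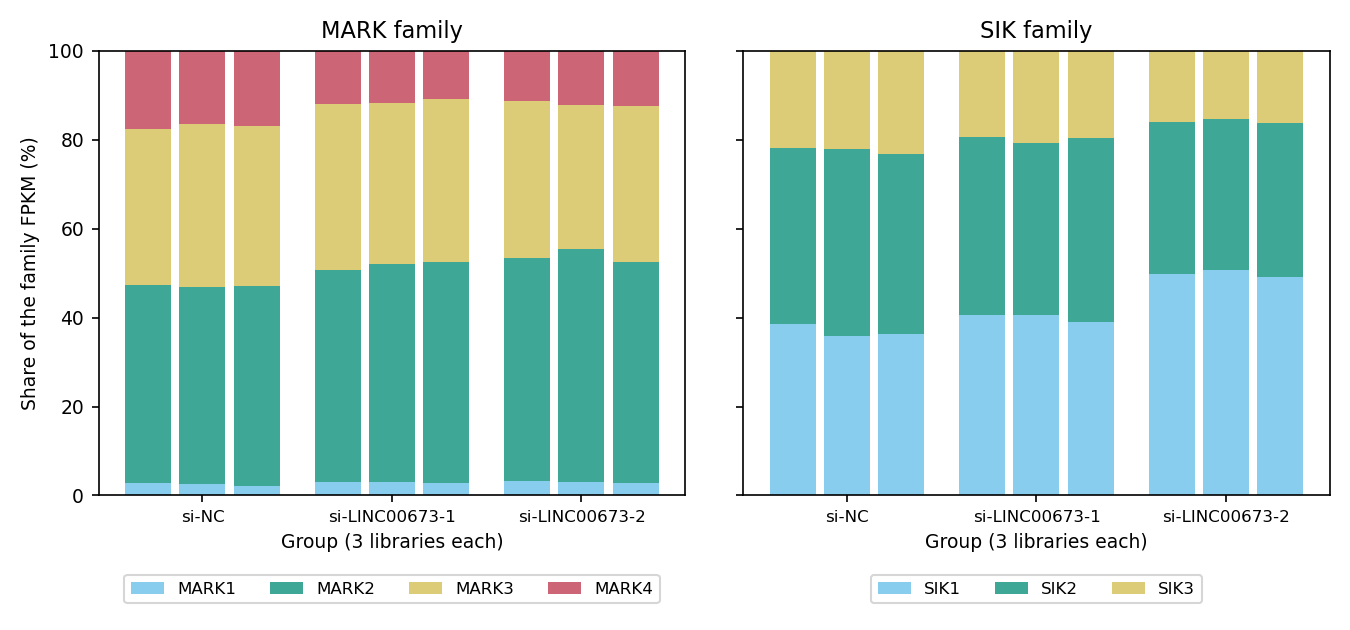
Stacked bars give the share (%) of each paralog in the summed FPKM of the MARK family (left) and the SIK family (right), with 1 bar per library and 3 libraries per group. The MARK4 share is 16.6% to 17.5% in si-NC and 10.8% to 12.4% in the siRNA libraries, and the SIK1 share is 35.9% to 38.5% in si-NC and 49.2% to 50.8% with si-LINC00673-2.

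SIK1 was the member whose response differed most between the siRNAs. It had 9.31, 8.75 and 8.98 FPKM in si-NC, 12.26, 12.42 and 11.97 FPKM with si-LINC00673-1, and 16.79, 17.49 and 17.37 FPKM with si-LINC00673-2. The 3 groups did not overlap, and 13.1% of all tested genes had every si-LINC00673-2 library above every si-LINC00673-1 library. The mean rose to 1.36 times that of si-NC with si-LINC00673-1 (log2 fold change 0.4, limma adjusted P = 8.2e-06) and to 1.91 times with si-LINC00673-2 (0.86, adjusted P = 3.8e-08). The difference between the siRNAs was 0.46 (95% confidence interval 0.38 to 0.54, adjusted P = 2.2e-05), and SIK1 was the only member past both limits in that comparison, in which 7.64% of all tested genes were. (Without the fold limit, 3 members and 44.0% of all genes passed.) In GENCODE v29, 80.5% of the 100-base windows of SIK1 transcripts are also found in SIK1B, a near-identical copy, so that reads of these genes cannot be told apart and the SIK1 value may hold both. None of the other members shared such a window with another gene.

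SIK2 and SIK3 had smaller differences. SIK2 was at 9.6, 10.21 and 9.97 FPKM in si-NC, 12.11, 11.79 and 12.71 FPKM with si-LINC00673-1, and 11.59, 11.65 and 12.23 FPKM with si-LINC00673-2. Its siRNA libraries were thus all above its si-NC libraries, as for 35.0% and 26.9% of all tested genes. Its log2 fold changes of 0.27 (limma adjusted P = 2.6e-04) and 0.23 (adjusted P = 6.4e-04) were short of the fold limit. SIK3 was at 5.3 to 5.71 FPKM in si-NC, 5.91 to 6.35 FPKM with si-LINC00673-1 and 5.26 to 5.73 FPKM with si-LINC00673-2, with log2 fold changes of 0.13 (adjusted P = 0.033) and -0.0016 (95% confidence interval -0.11 to 0.1, adjusted P = 0.98). In the SIK family the share of SIK1 was 36.9% ± 1.35 in si-NC, 40.0% ± 0.912 with si-LINC00673-1 and 49.9% ± 0.858 with si-LINC00673-2. The SIK3 share was 22.4% ± 0.659, 20.0% ± 0.703 and 15.8% ± 0.487. For SIK2 it was 40.7% ± 1.14, 40.0% ± 1.41 and 34.3% ± 0.377. For SIK1 and SIK3 all 3 comparisons between groups gave exact permutation P = 0.1, the smallest possible, and for SIK2 the comparison of si-LINC00673-1 with si-NC gave P = 0.5. The summed SIK FPKM was 24.4 ± 0.228, 30.5 ± 0.214 and 34.5 ± 0.776.

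NUAK2 had the largest ratio of the 10 members with si-LINC00673-1, and it matched SIK1 after rounding with si-LINC00673-2. The si-NC libraries had 4.9, 4.58 and 5.33 FPKM. The si-LINC00673-1 libraries had 8.95, 9.07 and 8.55 FPKM and the si-LINC00673-2 libraries 8.99, 9.85 and 9.43 FPKM, all far above the highest si-NC library. Of all tested genes, 35.0% and 26.9% had every siRNA library above every si-NC library. The mean rose to 1.79 times (log2 fold change 0.73, SE 0.054, limma adjusted P = 2.3e-06) and 1.91 times (0.81, adjusted P = 7.6e-07) that of si-NC. Between the siRNAs it differed by 0.08 (95% confidence interval -0.04 to 0.2, adjusted P = 0.26). NUAK1 had 0.19, 0.25 and 0.24 FPKM in si-NC, 0.25, 0.29 and 0.25 FPKM with si-LINC00673-1, and 0.2, 0.28 and 0.26 FPKM with si-LINC00673-2. The groups overlapped, and the counting error alone is 17.4% at the lowest of these depths, so that a moderate difference was not detectable. NUAK2 thus made up 94.8% to 96.3% of the NUAK FPKM in si-NC and 96.9% to 97.8% in the siRNA libraries.

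Since NUAK2 and SIK1 rose while STK11 fell, the levels of the downstream kinases relative to the upstream kinase were compared within each library. The NUAK2 over STK11 ratio of FPKM was 0.311 to 0.339 in si-NC, 0.953 to 1.1 with si-LINC00673-1 and 1.06 to 1.19 with si-LINC00673-2. The SIK1 over STK11 ratio was 0.572 to 0.644, 1.31 to 1.54 and 1.88 to 2.22. STK11 was thus the more abundant transcript of each pair in every si-NC library, and SIK1 was above it in all 6 siRNA libraries. These ratios are without the GC correction, with which the fall of STK11 was smaller, and the SIK1 value may hold SIK1B. For these ratios the choice of genes followed their fold changes, so they are given with no test. The summed FPKM of all 10 members was 102 ± 2.06 in si-NC, 109 ± 1.03 with si-LINC00673-1 and 107 ± 1.49 with si-LINC00673-2.

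Base composition moved with these results. Among the 11382 tested genes with a GC value, the group with the highest GC content out of 5 of equal size (59.1% to 74.1%, 2277 genes) had a median log2 fold change of -0.3 with si-LINC00673-1 and -0.35 with si-LINC00673-2, and 42.4% and 47.0% of its genes fell. In the group with the lowest GC content the medians were 0.08 and -0.06, and 2.99% and 12.8% of the genes fell. STK11 (63.2% GC), MARK2 (60.1%) and MARK4 (59.2%) were in the highest group, and SIK1 (57.7%) and NUAK2 (56.9%) in the next, whose medians were -0.05 and -0.12. MARK4 lay at the border of these groups, next to the lower edge of 59.1% of the highest. Thus MARK4 and STK11 moved in the direction of genes of their composition, and MARK2, SIK1 and NUAK2 lay on the other side of the median. With the GC correction SIK1 was at 0.501 and 1.03 and NUAK2 at 0.813 and 0.962. The part of GC content in the fall of MARK4 and STK11 was not tested further.

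**Figure D4:**
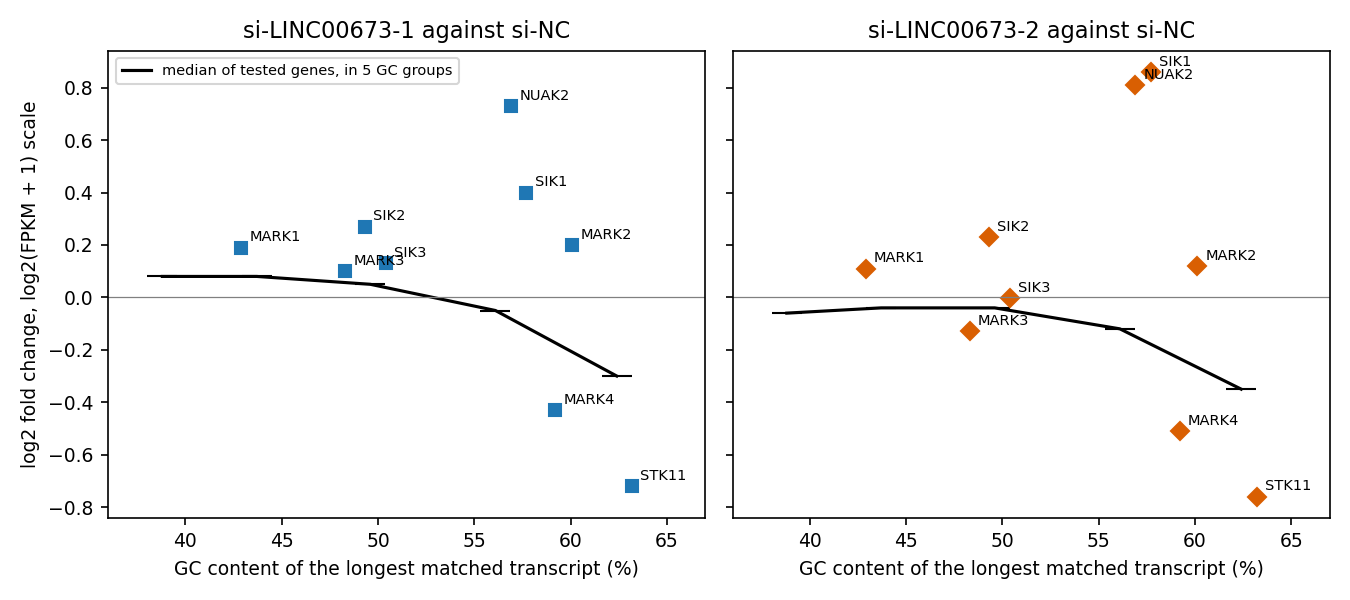
The log2 fold change against si-NC on the log2(FPKM + 1) scale (vertical axis) of the 9 tested members against the GC content (%) of the longest matched transcript, for si-LINC00673-1 (left) and si-LINC00673-2 (right). The line joins the medians of all tested genes in 5 groups of GC content, which reach -0.3 and -0.35 in the highest, and MARK4 and STK11 lie below it while NUAK2, SIK1 and MARK2 lie above it.

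To place the members among the genes they work with, 84 genes in 9 lists were examined, of which 71 passed the expression filter. With si-LINC00673-1, 12 rose and 9 fell (29.6%), and with si-LINC00673-2, 13 rose and 12 fell (35.2%), close to the 26.7% and 34.0% of all tested genes. The genes given with their levels below were, except STRADA, chosen as those that changed with both siRNAs in the same direction, at most 3 per list, and the others were added after their values were seen.

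Of the 4 LKB1 complex partners, 1 rose with each siRNA and none fell. It was CAB39, which encodes the scaffold MO25, with 24.1 ± 0.386 FPKM in si-NC, 39.2 ± 0.439 FPKM with si-LINC00673-1 and 41.0 ± 1.35 FPKM with si-LINC00673-2 (log2 fold changes 0.68 and 0.74, limma adjusted P = 1.4e-07 and 4.5e-08). The pseudokinase gene STRADA was at 20.2, 20.5 and 18.6 FPKM on average. Thus the transcript of the kinase fell and that of the scaffold gene CAB39 rose in the same libraries. CAB39L, another gene of this list, was at -0.09 and -0.24 (limma adjusted P = 0.14 and 0.001), lower but short of the fold limit. Of the 6 AMPK subunits tested, the regulatory subunit PRKAG1 fell from 42.9 ± 1.95 FPKM to 26.0 ± 1.43 and 25.7 ± 0.601 FPKM (-0.7 and -0.72, adjusted P = 1.3e-06 and 6.6e-07), and none of the others changed. No gene passed both limits among the other AMPK-related kinases tested. SNRK was higher (0.31 and 0.34, limma adjusted P = 9.2e-05 and 3.5e-05) but short of the fold limit. MELK was at 0.13 and 0.08 and HUNK at -0.11 and -0.22. Among 11 other upstream and inhibitory regulators, TAOK2, of a kinase family known to activate MARK kinases, fell from 12.4 ± 0.43 FPKM to 9.12 ± 0.86 and 7.43 ± 0.903 FPKM (-0.4 and -0.67, adjusted P = 0.0017 and 4.9e-05). Without the r2 library of si-LINC00673-1 its value was -0.342 and short of the limit, and with the GC correction it was -0.102 and -0.329. CAMKK2, a kinase that activates AMPK, and TAOK3 also fell with si-LINC00673-2 (-0.39 and -0.4), just past the limit. After rescaling by the median ratio they were at -0.3 and -0.319, and without 1 library of that siRNA (r1 for CAMKK2, r2 for TAOK3) at -0.357 and -0.344, all short of it.

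Among the 10 tested MARK substrates and partners, 1 rose and 4 fell with each siRNA, where 15.6% and 23.1% of all tested genes fell. The genes that fell were the mitotic phosphatase CDC25C (-0.45 and -0.61) and all 3 Dishevelled genes, whose proteins carry Wnt signals. DVL1 went from 39.8 ± 3.41 FPKM in si-NC to 20.8 ± 2.17 FPKM with si-LINC00673-1 and 24.1 ± 2.89 FPKM with si-LINC00673-2 (-0.91 and -0.7, limma adjusted P = 2.7e-05 and 1.2e-04), and DVL3 from 16.8 ± 0.238 FPKM to 12.3 ± 0.276 and 9.96 ± 0.386 FPKM (-0.42 and -0.7). DVL2, with -0.39 and -0.41, was just past the limit and fell short of it without the si-NC library without a suffix (-0.366) or r2 of si-LINC00673-1 (-0.324), and with si-LINC00673-2 when its library without a suffix was left out (-0.365) or the libraries were rescaled (-0.308). KSR1, a scaffold of the MAP kinase cascade, rose from 2.3 ± 0.119 FPKM to 3.94 ± 0.0503 and 4.02 ± 0.373 FPKM (0.58 and 0.6). With the GC correction DVL1 (-0.357 and -0.157), DVL2 (-0.195 and -0.163) and DVL3 with si-LINC00673-1 (-0.354) were short of the limit. The genes of the microtubule-associated proteins MAPT, MAP4 and MAP1B, the best known MARK substrates, lay between -0.17 and 0.24.

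In the list of SIK substrates and their partners, HDAC9, a class IIa histone deacetylase, rose from 2.69 ± 0.0608 FPKM to 8.28 ± 0.121 FPKM with si-LINC00673-1 and 9.13 ± 0.522 FPKM with si-LINC00673-2 (log2 fold changes 1.33 and 1.46, limma adjusted P = 2.7e-08 and 6.2e-09). The other 9 tested genes did not change with si-LINC00673-1, and CRTC1, a CREB coactivator, fell with si-LINC00673-2 (-0.47, adjusted P = 9.2e-05, and -0.158 with the GC correction). The genes of the coactivator CRTC2 (0.14 and 0.28) and of CREB1 (-0.08 and 0.01) were short of the limit.

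CREB and CRTC target genes, which SIK kinases restrain, were mixed, with several that rose. Of the 10 tested, 4 rose and none fell with si-LINC00673-1 (DUSP1, RGS2, PER1 and PCK1), where 11.1% of all tested genes rose, and 6 rose and none fell with si-LINC00673-2, where 11.0% did. Their median log2 fold changes were 0.3 and 0.66, against 0.003 and -0.095 over all tested genes. DUSP1, which encodes a phosphatase of MAP kinases, rose from 8.01 ± 0.684 FPKM to 19.0 ± 0.864 and 53.7 ± 3.84 FPKM (1.15 and 2.6, limma adjusted P = 5.0e-07 and 1.5e-09). RGS2, a regulator of G protein signaling, rose from 1.54 ± 0.198 FPKM to 2.99 ± 0.408 and 4.38 ± 0.291 FPKM (0.65 and 1.08), and the clock gene PER1 from 23.9 ± 0.844 FPKM to 34.4 ± 0.476 and 42.8 ± 2.93 FPKM (0.51 and 0.81). The immediate early genes FOS (0.37 and 1.5) and NR4A1 (0.23 and 0.9) passed the limit with si-LINC00673-2, and FOS was just short of it with si-LINC00673-1 (0.382 without r2 of si-NC and 0.381 without r2 of si-LINC00673-1, both past it). Other targets of this class did not pass both limits. CREM (-0.08 and -0.27, adjusted P = 6.7e-04 with si-LINC00673-2) and PDE4D (-0.16 and -0.27, adjusted P = 8.0e-04) were lower but short of the fold limit, and NR4A2 was at 0.05 and 0.03. IRS2 was higher (0.19 and 0.34, limma adjusted P = 0.0065 and 1.3e-04) but also short of the fold limit. In the direct comparison of the siRNAs, 4 of the 10 genes were higher with si-LINC00673-2, where 2.19% of all tested genes were: DUSP1 by 1.45, FOS by 1.14, NR4A1 by 0.67 and RGS2 by 0.43. In that comparison SIK1, itself of this class, differed by 0.46.

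The 10 genes of the myosin phosphatase list, on which NUAK kinases act, had 1 that rose and 3 that fell with each siRNA, where 26.7% and 34.0% of all tested genes changed in either direction. MYL9, a regulatory light chain of myosin, fell from 12.0 ± 0.21 FPKM to 5.54 ± 0.362 and 3.63 ± 0.392 FPKM (log2 fold changes -0.99 and -1.49, limma adjusted P = 1.1e-06 and 4.4e-08). MYL6, an essential light chain, rose from 333 ± 10.2 FPKM to 471 ± 8.63 and 552 ± 18.8 FPKM (0.5 and 0.73). PPP1R12C, a targeting subunit of the phosphatase, fell from 13.6 ± 0.481 FPKM to 7.93 ± 1.24 and 8.55 ± 1.21 FPKM (-0.72 and -0.62), but with the GC correction it was at -0.176 and -0.082. PPP1CC, a catalytic subunit, had -0.44 and -0.57, while PPP1R12A, the targeting subunit known as MYPT1, had 0.21 and -0.01.

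Of the 7 genes of 14-3-3 proteins, which bind the phosphorylated substrates of these kinases, 4 rose with si-LINC00673-1 (YWHAB, YWHAG, YWHAQ and YWHAZ) and 3 with si-LINC00673-2 (YWHAG, YWHAQ and SFN), and none fell. Of all tested genes 11.1% and 11.0% rose. The medians were 0.4 and 0.34, against 0.003 and -0.095 over all tested genes. YWHAG rose from 53.9 ± 1.87 FPKM to 94.5 ± 0.861 and 99.1 ± 2.07 FPKM (0.8 and 0.87, limma adjusted P = 5.3e-08 and 1.5e-08), and YWHAQ from 191 ± 3.85 FPKM to 252 ± 0.937 and 251 ± 3.47 FPKM (0.4 and 0.39). With si-LINC00673-1 and the GC correction YWHAQ was at 0.321 and YWHAZ at 0.345, short of the limit, and SFN at 0.616, past it. With si-LINC00673-2, YWHAB (0.3) and YWHAZ (0.34) were past the limit after rescaling by the median ratio (0.407 and 0.448).

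**Figure D5:**
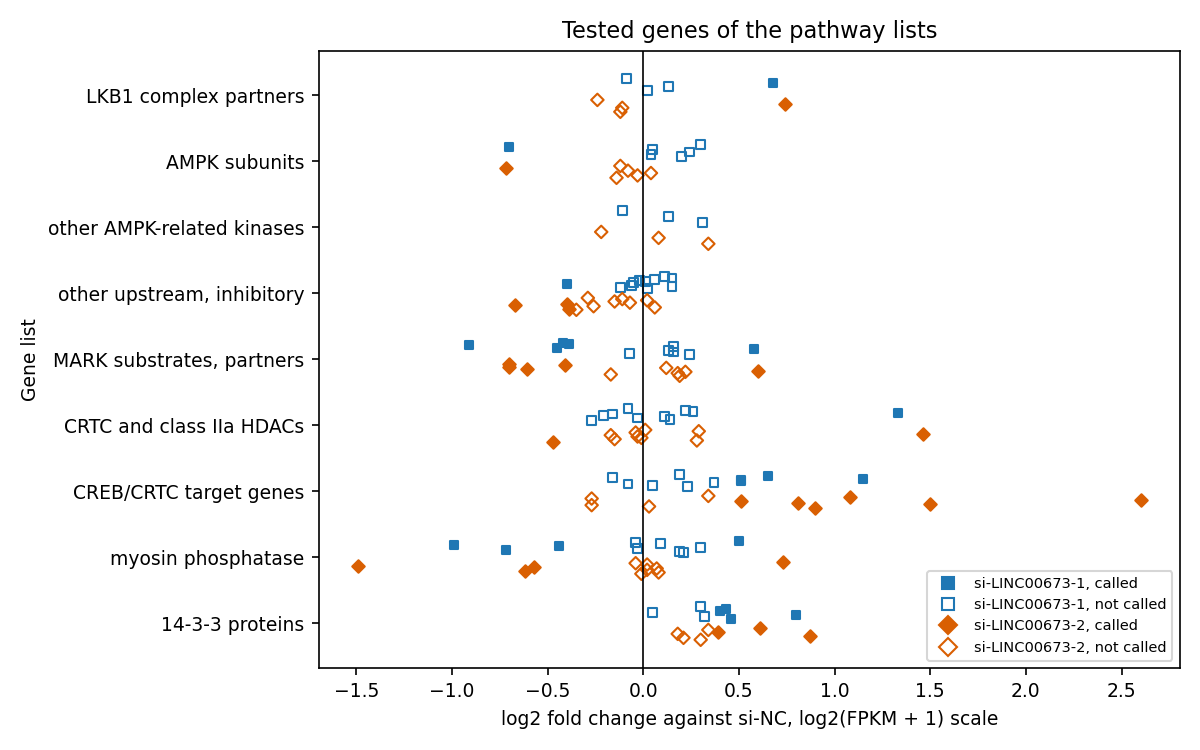
The log2 fold change against si-NC on the log2(FPKM + 1) scale (horizontal axis) of each of the 71 tested genes in the 9 lists (rows), with squares for si-LINC00673-1 and diamonds for si-LINC00673-2, filled where the gene passed the limits. The CREB and CRTC target genes reach 2.6 and the 14-3-3 genes are all above 0, while the MARK and myosin lists have changed genes on both sides.

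The genes whose pattern over the 9 libraries was most like that of the members with a steady change were looked up among 11402 genes by Pearson's correlation of log2 values, as a description. For MARK4 these were DGKQ (r = 0.999), NAB2 (0.997) and PKN3 (0.997), and 1142 of the genes had an r of 0.95 or more. DGKQ fell from 14.9 FPKM in si-NC to 7.79 and 6.95. For STK11 they were PPP1R26 (0.998), ZNF775 (0.996) and RHBDL1 (0.996), with 933 such genes. For NUAK2 they were NSMCE1 (0.996), APEX2 (0.995) and MALL (0.995), with 628. MALL rose from 3.9 FPKM in si-NC to 8.91 and 9.82. The libraries fall into control and siRNA groups, so that any gene that shifts with both siRNAs has a high r.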

How the data were processed

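RNA sequencing of 9 libraries on the BGISEQ-500 platform was used. The submitters' processing notes name Bowtie2 and GRCh37.p13; the authors deposited FPKM per gene, in 2 equal copies, with their own log2 ratios, P values and Q values, which were not used here. Genes whose FPKM averaged 1 or more over all 9 libraries were kept (12884). These were tested as log2(FPKM + 1) with limma 3.58.1 (lmFit, eBayes with trend, R 4.3.3) in 1 fit of all libraries by group, with Benjamini-Hochberg adjustment over all of them; fold changes on this scale understate those of low genes. Shares of families were compared with a two-sided exact permutation test. The script was tested on simulated data. Depth was estimated from the steps of low FPKM values (431 to 485 genes per library, mean distance to a whole fragment 0.106 to 0.125), and errors from counting cover counting only. GC content was that of the longest GENCODE v29 transcript matched by RefSeq accession or symbol, and was found for 88.3% of tested genes. The GC correction is a lowess of each library on it with a span of 0.3.

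The members, lists and tests were chosen with earlier results of these data known. The text names all 10 members and, per list, at most 3 genes that changed with both siRNAs in the same direction, with the largest mean change. STRADA, CAB39L, CAMKK2, TAOK3, DVL2, CDC25C, the microtubule-associated protein genes, CRTC1, CRTC2, CREB1, FOS, NR4A1, NR4A2, CREM, PDE4D, IRS2, PCK1, PPP1CC, PPP1R12A, YWHAB, YWHAZ, SFN and the tested other AMPK-related kinases were added after their values were seen. Markers of other cell kinds not given above were KRT18 (1679.95 to 2508.96 FPKM), ESR1 (0.0 to 0.02), KRT5 (0.35 to 0.63), KRT14 (0.03 to 0.25) and COL1A1 (3.49 to 7.08), and 1 further marker is not reported here.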

Additional observations from a re-analysis of the deposited data

Results flagged for a closer look

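Among the members, 3 had a response that differed between the siRNAs in the direct comparison of si-LINC00673-2 with si-LINC00673-1 (limma, adjusted P at most 0.05 over all tested genes, a limit that 44.0% of them met). SIK1 was higher by 0.46 on the log2 scale (adjusted P = 2.2e-05), with the 3 si-LINC00673-2 libraries at 16.79 to 17.49 FPKM and the 3 si-LINC00673-1 libraries at 11.97 to 12.42 FPKM. MARK3 differed by -0.23 (adjusted P = 0.0026), with 17.48 to 19.42 against 21.69 to 22.67 FPKM. SIK3 differed by -0.13 (adjusted P = 0.044), with 5.26 to 5.73 against 5.91 to 6.35 FPKM. The median of all tested genes in this comparison was -0.081, and 0.0101 after rescaling by the median ratio. After that rescaling MARK3 was at -0.13 and SIK3 at -0.042.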

How the results depend on the processing

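The 4 members called (past both limits) against si-NC with each siRNA, and SIK1 in the comparison of the siRNAs, were called in every fit that left out 1 library. Of 537 recomputed fold changes of members, 496 kept their direction and their side of the limits, 11 lost and 10 gained a call and 20 changed sign. Genes called numbered 3436, 4385 and 984 (si-LINC00673-1 and si-LINC00673-2 against si-NC, and si-LINC00673-2 against si-LINC00673-1), 2211, 2714 and 547 with a minimum of 5 FPKM (fewer genes tested), 8296, 9121 and 5675 at an adjusted P of 0.05 with no fold limit, and 366, 604 and 40 at a fold of 2. The members called were then 8, 7 and 3 with no fold limit and 0, 0 and 0 at a fold of 2. In the lists, for which the settings were added after the data were seen, 21 and 25 genes were called against si-NC, 48 and 50 with no fold limit and 2 and 5 at a fold of 2. Between the siRNAs, 1656 genes were called with 0.1 FPKM added before the log and 570 with the GC correction. The cause of these shifts was not tested. Leaving out 1 library gave 3339 to 3592, 4296 to 4464 and 939 to 1117 genes.

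Sign changes arose in values near 0. Between the siRNAs, after rescaling by the median ratio, MARK2 was 0.023, MARK4 0.015, SIK2 0.057 and STK11 0.049. After the length correction MARK1 was 0.039, MARK2 0.045, MARK4 0.048, SIK2 0.087, SIK3 0.003 and STK11 0.058, and after the GC correction MARK1 was 0.029 and SIK2 0.048. SIK3 with si-LINC00673-2 against si-NC was 0.089, 0.084 and 0.041 in that order. Without 1 library it ranged from -0.031 to 0.025, and STK11 between the siRNAs from -0.121 to 0.022. As a share of all 10 members in place of the family, SIK2 differed from si-NC by 1.47 and 1.26 percentage points and SIK3 with si-LINC00673-1 by 0.23. Leaving out 1 library gave -1.37 to 0.04 points for the SIK2 share of the SIK family with si-LINC00673-1.

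The library suffixes repeat between groups, but libraries with the same suffix did not visibly deviate together (r of -0.239 to 0.104). Whether they shared a culture or a preparation is not given by the labels and cannot be read from these r values. With the suffix as a replicate block, 3449, 4400 and 988 genes were called and the calls of the members were 4, 4 and 1. Depth limits NUAK1, and single libraries decide list genes near the fold limit.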
